A study of Rattus norvegicus with 11 samples.

Results

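Smooth muscle contractile and cytoskeletal genes were examined in rat lung through 32 genes chosen by name, among them the smooth muscle actins, myosin heavy chain, calponin, the tropomyosins, desmin, the kinases and phosphatase of the myosin light chain, and the factor pair that drives their transcription. The list was drawn up with earlier results of these data known. Every probe set whose annotation named exactly 1 of these genes was taken, which gave 61 of the 31042 probe sets tested and 31 of the 32 genes. Myl6, the essential light chain of smooth muscle myosin, had only a probe set that also names Myl6b and Myl6l and was not used. For 15 genes there was 1 probe set and for 16 there were several, and the probe set of highest mean over all arrays is called the leading one. No leading probe set had a mean below the background level of 5.72 on the log2 scale, set from 27 bacterial control probe sets.

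Total RNA was taken from lung tissue of Dahl Salt Sensitive rats weighing 250 to 350 g, a strain bred for hypertension on a salt-rich diet, after 3.5 weeks. The groups used were room air with vehicle (4 arrays), vehicle in air held to about 9.5% oxygen (hypoxia, 4 arrays), and the same hypoxia with SU5416 (3 arrays), a small-molecule inhibitor of VEGF receptor tyrosine kinase activity that is combined with hypoxia to model pulmonary arterial hypertension. The lung vessels had been flushed through the pulmonary artery, no group received SU5416 in room air, and a group that also received sorafenib was not analysed here. Age, sex and the SU5416 dose are not given in the sources used here, nor do the labels say that each array came from a separate animal, so the p-values measure only the spread between these arrays. Lung markers were bright in every group: the group means of Sftpc, of alveolar type II cells, lay between 13.07 and 13.38 log2 units.

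Smooth muscle shortens when myosin pulls on actin filaments that are anchored in dense bodies and in plaques at the cell membrane. Calcium bound to calmodulin activates myosin light chain kinase, which phosphorylates the regulatory light chain. Myosin phosphatase removes that phosphate and is itself restrained by the RhoA and ROCK pathway. Serum response factor, with its coactivator myocardin, binds CArG boxes, in which CC and GG flank a core of A and T, and switches on many contractile genes. In the lung these genes are most active in the walls of arteries, veins and airways, and several are also expressed by pericytes and myofibroblasts. In pulmonary hypertension, muscle extends into small arteries that normally have little of it.

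The promoter table from RefSeq (assembly GRCr8) held an entry for 26 of the 32 genes, in 27 promoters, and none for Lmod1, Myh11, Myl9, Myocd, Pdlim3 and Tagln. The 250 bases before each start were searched for a CArG box, a rule that reads the same on both strands. A box without a mismatch was found in 1 of the 27 member promoters (3.70%), against 1.5% of all 33469 promoters. Allowing up to 1 mismatch in the core, which includes the exact matches, gave 2 of 27 (7.41%) against 8.08%. The promoters of the smooth muscle actin gene and of the factor itself are shown because they are the 2 with a match, with the matching bases in capitals, as the 150 bases before the start on the strand of the gene. That of Acta2 lies at chr1:241172504-241172653 on the minus strand, and its capitals mark CCCTATATGG, 134 to 125 bases before the start, and CCTTGTTTGG, 84 to 75 bases before it, each with 1 mismatch. That of Srf lies at chr9:21923926-21924075 on the plus strand, and its capitals mark CCATATAAGG, 81 to 72 bases before the start, and CCATAAAAGG, 61 to 52 bases before it, both without a mismatch.
Acta2: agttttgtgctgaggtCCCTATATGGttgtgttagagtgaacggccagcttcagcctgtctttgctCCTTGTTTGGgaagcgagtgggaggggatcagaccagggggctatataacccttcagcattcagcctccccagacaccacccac
Srf: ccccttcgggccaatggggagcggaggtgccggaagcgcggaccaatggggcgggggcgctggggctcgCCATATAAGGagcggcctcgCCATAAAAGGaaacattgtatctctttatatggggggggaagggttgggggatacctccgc
These matches describe letters within a short window, and no binding was measured.

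None of the 61 probe sets passed the test in any of the 3 comparisons (limma, Benjamini-Hochberg adjusted p below 0.05 over all 31042 probe sets). Few probe sets of any kind did with all arrays in the fit: 2 in hypoxia against room air (0.00644%), 19 in hypoxia with SU5416 against room air (0.0612%) and 8 in hypoxia with SU5416 against hypoxia (0.0258%). What follows is therefore levels, differences and counts at an unadjusted p below 0.05. Each count stands beside the same count over all probe sets, except where arrays were left out or the model was changed. Differences are on the log2 scale, so that 1 unit is a doubling, with the standard error (SE) of the fit, and group values are means ± SD over 4, 4 and 3 arrays.

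In lungs exposed to hypoxia with SU5416, 22 of the 31 genes stood above room air and 9 below, with a median difference of 0.22, whereas the median over all probe sets was -0.04 and 44.5% of them stood higher. At an unadjusted p below 0.05, 13 of the 31 genes (41.9%) were higher: Acta2, Actg2, Actn1, Cald1, Cnn1, Des, Lmod1, Myl9, Pdlim7, Smtn, Tagln, Tpm1 and Tpm2. Over all probe sets 4.82% met the same rule, and 6.37% of the brighter ones, those with a mean at or above the median. In the other direction, Pdlim3 and Synpo2 were lower, 6.45% of the 31 genes against 7.57% of all probe sets and 7.65% of the brighter ones. These gene counts rest on the brightest probe set of each gene. Of all 61 member probe sets, 15 (24.6%) were higher at that p and 4 (6.56%) lower. With hypoxia alone, 19 genes (61.3%) stood above room air and 12 below, with a median difference of 0.04. Over all probe sets 42.4% stood higher, and 50.1% of the brighter ones. At an unadjusted p below 0.05, 1 gene was higher and 2 were lower, against 3.33% and 7.64% of all probe sets and 4.35% and 4.54% of the brighter ones. Between the hypoxic groups, 27 of 31 genes (87.1%) stood higher with SU5416, with a median of 0.14 against 0.01 over all probe sets. Of all probe sets 52.4% stood higher, and 48.3% of the brighter ones. In that comparison Actg2, Cnn1, Des, Myh11, Tagln and Tpm2 (19.4%) met the unadjusted rule as higher, against 4.02% of all probe sets, and none as lower, against 3.45%. Among the brighter probe sets these shares were 3.0% and 3.91%. Of the 61 member probe sets, 9 (14.8%) met it as higher and none as lower. Centring each array on its median moved the split to 25 higher and 6 lower in hypoxia against room air and to 23 and 8 between the hypoxic groups. Without the second SU5416 array, the 13 genes above room air became 6, the 6 above hypoxia became 3, and the median difference from hypoxia became 0.08. The shares of all probe sets at that p in this refit are not given here. The comparisons share arrays, so their counts are not separate pieces of evidence. Because the list was drawn up with earlier results of these data known, its shares do not come from an independent choice of genes. In lung tissue, more or fewer muscle cells and more or less RNA per cell cannot be told apart.

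**Figure D1:**
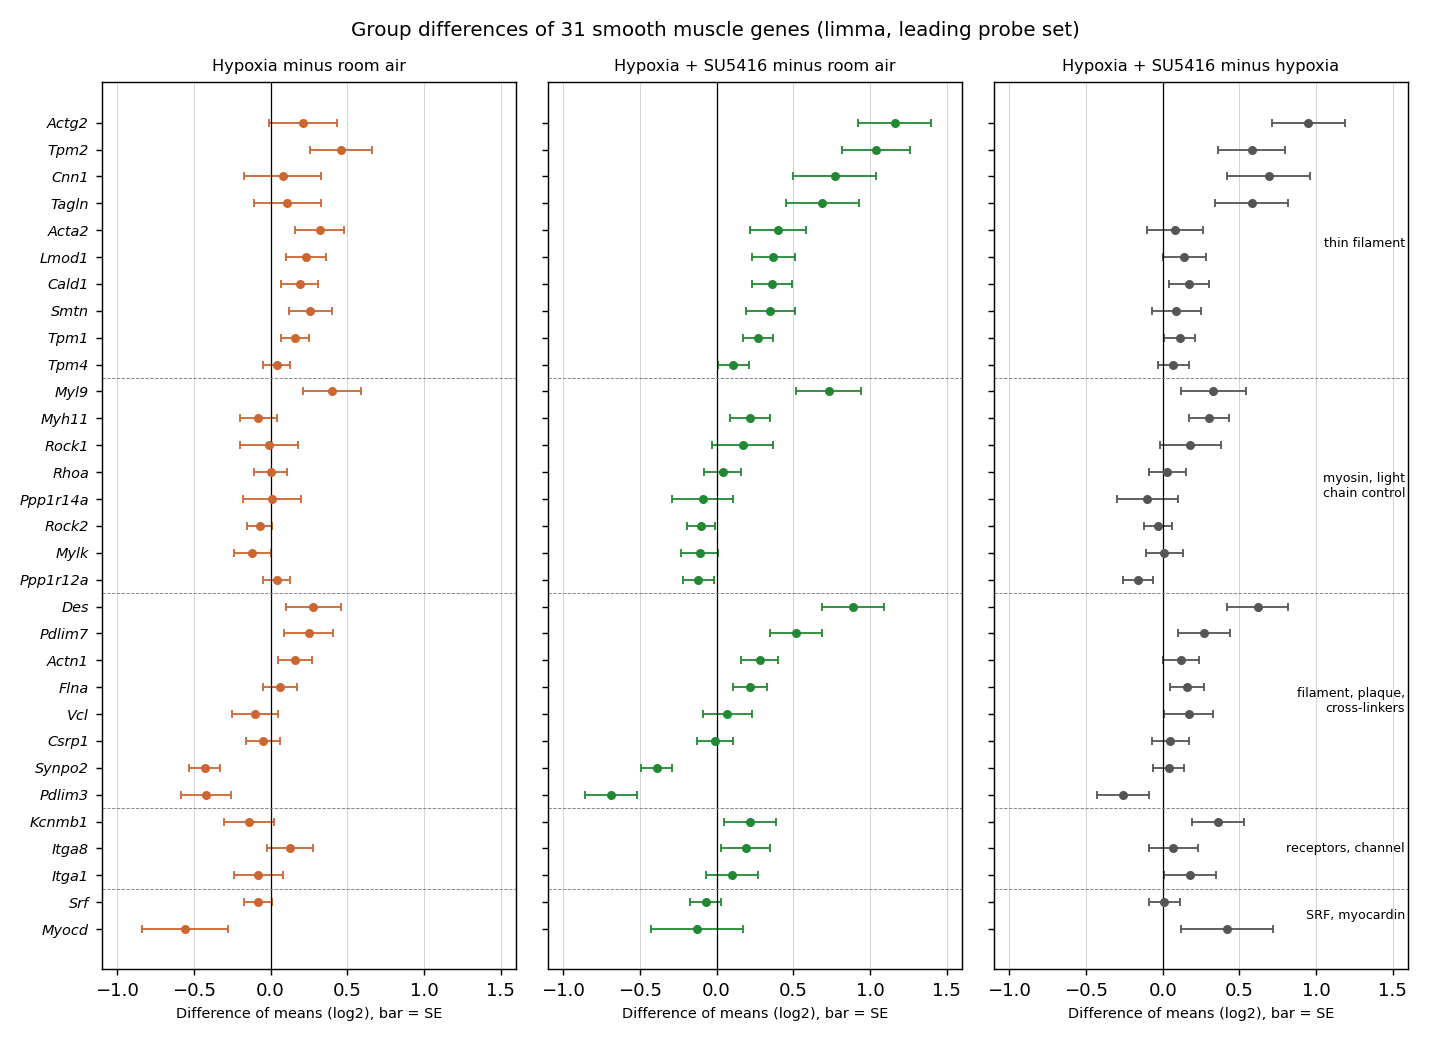
Log2 differences of the leading probe set of each of the 31 genes, ordered by role, for hypoxia against room air, hypoxia with SU5416 against room air, and hypoxia with SU5416 against hypoxia; bars are the standard error of the fit. The thin-filament genes lie to the right of 0 in every comparison, up to 1.16 for Actg2, and of the myosin genes Myl9 lies farthest to the right, at 0.73 with SU5416 against room air.

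The thin-filament genes, the actins and the proteins that bind along them, had the highest median difference from room air of the roles. Between the hypoxic groups their median was 0.15, against 0.18 for the receptors and channel subunit and 0.22 for the transcription factor and coactivator. All 10 were above room air with SU5416, by 0.11 to 1.16 and a median of 0.39, and 9 of them at an unadjusted p below 0.05, which 4.82% of all probe sets met as higher. All 10 were above room air in hypoxia alone too, by 0.04 to 0.46 and a median of 0.20, where Tpm2 alone met that p, against 3.33% of all probe sets. Against room air with SU5416, no refit that included them turned the sign of any of the 10, whereas in hypoxia alone Cnn1, Tagln and Tpm4 turned in 3, 1 and 1 of the refits.

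Acta2, smooth muscle alpha-actin and the most used marker of these cells, read 11.88, 11.94, 11.46 and 11.33 in room air, 12.22, 12.01, 11.92 and 11.74 in hypoxia, and 12.08, 12.18 and 11.91 with SU5416. The groups overlapped: a pair of room-air arrays sat among the hypoxic ones and a pair sat below all of them. The difference from room air was 0.32 (SE 0.16, adjusted p = 0.508) in hypoxia and 0.40 (SE 0.18, adjusted p = 0.393) with SU5416, and the hypoxic groups differed by 0.08 (SE 0.18, adjusted p = 0.942). Another 5 probe sets named both Acta2 and Actc1, the cardiac actin, and were not used.

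Actg2, the enteric gamma-actin of visceral and some vascular smooth muscle, read 10.43, 10.65, 10.99 and 10.53 in room air, 11.04, 11.28, 10.94 and 10.18 in hypoxia, and 11.74, 11.99 and 11.71 with SU5416. The SU5416 arrays lay above all 8 others, while the hypoxia arrays spanned the room-air range on both sides. Its difference from room air, 1.16 with SU5416 (SE 0.24, adjusted p = 0.116, range over the alternatives 0.0345 to 0.297), corresponds to 2.24-fold and was the highest among leading probe sets. From hypoxia it differed by 0.95 (SE 0.24, adjusted p = 0.434), and hypoxia from room air by 0.21 (SE 0.22, adjusted p = 0.767).

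Tpm2, beta-tropomyosin, which lies along the actin filament, read 10.65, 10.53, 10.63 and 10.35 in room air, 11, 11.42, 11.21 and 10.37 in hypoxia, and 11.52, 11.67 and 11.56 with SU5416. In hypoxia 3 arrays lay above room air and the other one did not, and the SU5416 arrays were again above all 8 others. The difference with SU5416 was 1.04 from room air (SE 0.22, 2.06-fold, adjusted p = 0.113, range 0.0336 to 0.296) and 0.58 from hypoxia (SE 0.22, adjusted p = 0.587). Hypoxia alone differed from room air by 0.46 (SE 0.20, adjusted p = 0.445).

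Tagln, transgelin or SM22-alpha, an early marker of smooth muscle, read 11.28, 11.70, 11.19 and 11.17 in room air, 11.50, 11.78, 11.71 and 10.78 in hypoxia, and 11.90, 12.02 and 12.14 with SU5416. Cnn1, calponin, which binds actin and restrains myosin's ATPase, read 10.07, 9.88, 9.88 and 9.27 in room air, 9.90, 10.24, 10.12 and 9.16 in hypoxia, and 10.34, 10.73 and 10.57 with SU5416. For both genes the SU5416 arrays were above all others and the fourth hypoxia array was the lowest of the 11. Tagln differed by 0.69 from room air (SE 0.24, adjusted p = 0.294) and by 0.58 from hypoxia (SE 0.24, adjusted p = 0.628). Cnn1 differed by 0.77 from room air (SE 0.27, adjusted p = 0.302) and by 0.69 from hypoxia (SE 0.27, adjusted p = 0.616). Hypoxia alone differed from room air by 0.11 for Tagln and 0.08 for Cnn1, less than the SE of 0.22 and 0.25, and by 0.33 (SE 0.15) and 0.31 (SE 0.20) without the fourth hypoxia array.

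Lmod1, leiomodin, which nucleates actin filaments in smooth muscle, read 8.50, 8.27, 8.03 and 8.28 in room air, 8.44, 8.65, 8.61 and 8.29 in hypoxia, and 8.57, 8.75 and 8.60 with SU5416. Every SU5416 array lay above the room-air range by a small step: the difference was 0.37 (SE 0.14, adjusted p = 0.318), against 0.23 (SE 0.13, adjusted p = 0.536) in hypoxia alone. The remaining thin-filament genes differed from room air with SU5416 by 0.36 for Cald1 (caldesmon, SE 0.13), 0.35 for Smtn (smoothelin, SE 0.16), 0.27 for the leading probe set of Tpm1 (alpha-tropomyosin, SE 0.10) and 0.11 for Tpm4 (a tropomyosin of non-muscle cells, SE 0.10). In hypoxia alone the same genes differed by 0.19, 0.26, 0.16 and 0.04, with SE between 0.09 and 0.14. With SU5416, the arrays of Cald1 and Tpm1 lay wholly above room air and those of Smtn and Tpm4 overlapped it.

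**Figure D2:**
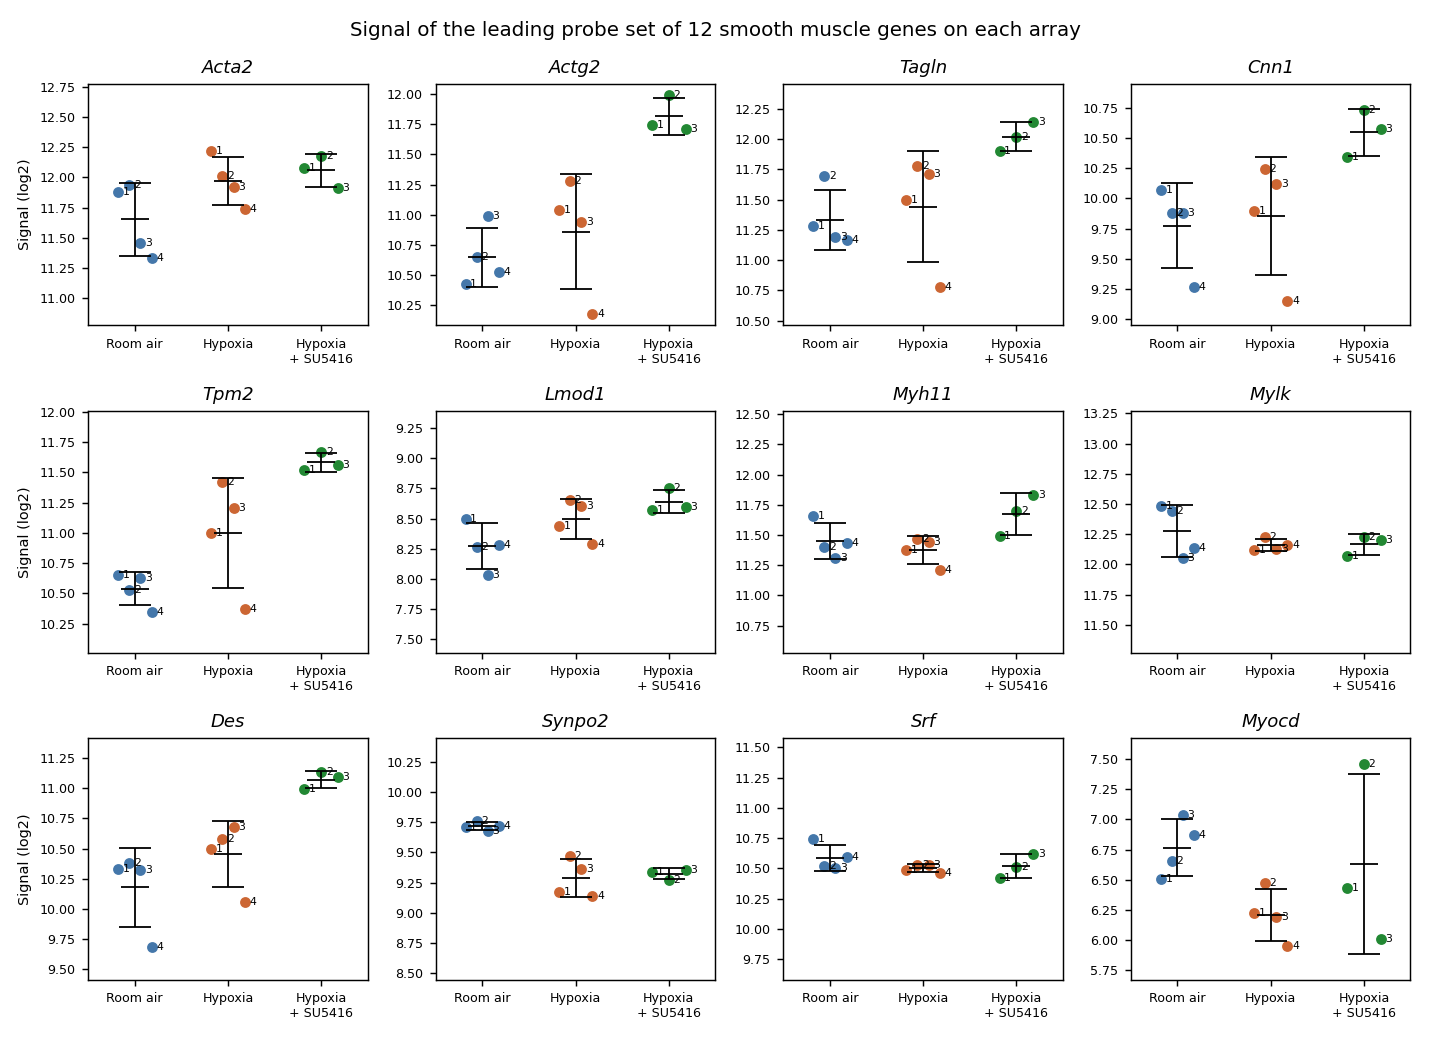
Deposited log2 values of the leading probe set of 12 genes on each of the 11 arrays by group (points), with the group mean and SD; each panel spans 2 log2 units. For Actg2, Tagln, Cnn1, Tpm2 and Des the 3 SU5416 arrays lie above the other 8, and the groups of Mylk and Srf overlap.

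The myosin motor and the enzymes that set its phosphorylation stood close to room air. Of the 8 genes of this kind with a probe set, 4 were above and 4 below with SU5416, with a median of -0.03. In hypoxia alone the split was also 4 and 4, with a median of 0.00. The shares of all probe sets above room air were 44.5% and 42.4%, in that order. Myl9 alone among the 8 genes met the unadjusted rule with SU5416, as higher, against 4.82% of all probe sets. This regulatory light chain, the substrate of the kinase, averaged 10.99 ± 0.17 in room air, 11.39 ± 0.40 in hypoxia and 11.71 ± 0.16 with SU5416. Its difference from room air was 0.73 with SU5416 (SE 0.21, 1.65-fold, adjusted p = 0.211) and 0.40 in hypoxia (SE 0.19, adjusted p = 0.485), where 3 arrays lay between 11.43 and 11.73 and the fourth was at 10.81, below all room-air arrays.

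Myh11, the smooth muscle myosin heavy chain and the most restricted marker of the mature cell, read 11.66, 11.40, 11.31 and 11.43 in room air, 11.38, 11.47, 11.44 and 11.21 in hypoxia, and 11.49, 11.70 and 11.83 with SU5416. The SU5416 arrays were above all hypoxia arrays but overlapped room air, where the first array stood at 11.66. The differences were 0.22 from room air (SE 0.13, adjusted p = 0.502), 0.30 from hypoxia (SE 0.13, adjusted p = 0.640), and -0.08 for hypoxia against room air (SE 0.12, adjusted p = 0.852). Its dimmer probe set differed by 1.18 from room air with SU5416, with an SE of 0.75, and spread from 4.84 to 8.44 within room air alone.

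Mylk, myosin light chain kinase, read 12.48, 12.44, 12.05 and 12.14 in room air, 12.12, 12.23, 12.13 and 12.16 in hypoxia, and 12.07, 12.23 and 12.20 with SU5416. All groups overlapped, and the differences were -0.12 in hypoxia (SE 0.12) and -0.11 with SU5416 (SE 0.12). The phosphatase subunit Ppp1r12a, which targets the enzyme to myosin, differed from room air by -0.12 with SU5416 (SE 0.10), and Ppp1r14a, its inhibitor CPI-17, by -0.09 (SE 0.20). The small GTPase Rhoa differed by 0.04 (SE 0.12), and its kinases by 0.17 for Rock1 (SE 0.20) and -0.10 for the leading probe set of Rock2 (SE 0.09). In hypoxia alone these 5 genes differed by 0.04, 0.01, 0.00, -0.01 and -0.07 in that order, with SE between 0.08 and 0.19. All 4 probe sets of Rock2 stood below room air with SU5416, by 0.10 to 1.20 in size; the dimmest, 1387379_at, gave -1.20 (SE 0.53, adjusted p = 0.393), with room-air arrays from 7.29 to 9.67 and SU5416 arrays from 7.19 to 7.43.

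Among the intermediate filament, plaque and cross-linking genes, 5 of 8 were above room air with SU5416 and 3 below, with a median of 0.14. The share of all probe sets above room air was 44.5%. Des, desmin, the muscle intermediate filament that links dense bodies, read 10.33, 10.38, 10.32 and 9.69 in room air, 10.50, 10.58, 10.68 and 10.06 in hypoxia, and 10.99, 11.13 and 11.09 with SU5416. The SU5416 arrays were above all others, and 3 of 4 hypoxia arrays were above room air. Its differences with SU5416 were 0.89 from room air (SE 0.20, 1.85-fold, adjusted p = 0.130, range 0.0412 to 0.322) and 0.62 from hypoxia (SE 0.20, adjusted p = 0.522), and in hypoxia alone 0.28 (SE 0.18, adjusted p = 0.608). Pdlim7, a PDZ and LIM protein of actin bundles, differed by 0.52 with SU5416 (SE 0.17) and Actn1, alpha-actinin of dense bodies, by 0.28 (SE 0.12), and the SU5416 arrays of both lay above room air. So did those of Flna, the cross-linker filamin A, by 0.22 (SE 0.11, adjusted p = 0.471). Vcl, vinculin of the membrane plaques, differed by 0.07 (SE 0.16) and Csrp1, a LIM protein of smooth muscle, by -0.01 (SE 0.12). In hypoxia alone these 5 genes differed by 0.25, 0.16, 0.06, -0.10 and -0.05, with SE between 0.11 and 0.16.

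A pair of genes in the same structures stood on the other side of room air. Pdlim3, an actinin-associated LIM protein, read 10.57, 10.36, 11 and 10.95 in room air, 10.40, 10.32, 10.14 and 10.33 in hypoxia, and 9.85, 10.24 and 10.01 with SU5416. The differences were -0.42 in hypoxia (SE 0.16, adjusted p = 0.388) and -0.69 with SU5416 (SE 0.17, adjusted p = 0.171, range 0.0633 to 0.412), where no array overlapped room air. Synpo2, myopodin, which bundles actin in smooth muscle, read 9.71, 9.76, 9.68 and 9.72 in room air, 9.17, 9.47, 9.37 and 9.14 in hypoxia, and 9.34, 9.27 and 9.36 with SU5416. Room air spanned under 0.1 units and lay above all 7 hypoxic arrays, with differences of -0.43 (SE 0.10, adjusted p = 0.249) and -0.39 (SE 0.10, adjusted p = 0.186). The other 3 probe sets of Synpo2 did not show this: with SU5416 they stood at 0.24, 0.05 and 0.31 above room air.

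By their leading probe sets, the matrix receptors and the channel subunit differed little. Itga8, an integrin of vascular smooth muscle and fibroblasts, differed from room air by 0.19 with SU5416 (SE 0.16) and 0.13 in hypoxia (SE 0.15). Its dimmer probe set, 1385354_at, differed by 0.46 (SE 0.27) and -0.20 (SE 0.25). There the SU5416 arrays lay above all hypoxia arrays, with a difference of 0.66 (SE 0.27, adjusted p = 0.630). Itga1, the alpha-1 collagen receptor, differed by 0.10 (SE 0.17) and -0.08 (SE 0.16). Kcnmb1, the beta-1 subunit that raises the calcium sensitivity of the BK potassium channel, differed by 0.22 (SE 0.17) and -0.14 (SE 0.16), and the hypoxic groups by 0.36 (SE 0.17, adjusted p = 0.710).

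The means of the transcription factor and its coactivator lay below room air in both hypoxic groups, for the factor by less than the SE. Srf, serum response factor, read 10.74, 10.52, 10.50 and 10.59 in room air, 10.49, 10.53, 10.53 and 10.46 in hypoxia, and 10.42, 10.51 and 10.62 with SU5416. The groups overlapped, with differences of -0.08 in hypoxia (SE 0.09) and -0.07 with SU5416 (SE 0.10), and all 3 of its probe sets stood below room air with SU5416. Without the first and second room-air arrays, the differences of the leading probe set were -0.04 and -0.03. After centring each array on its median they were 0.01 and -0.02. Myocd, myocardin, which is restricted to smooth and cardiac muscle, read 6.51, 6.65, 7.04 and 6.87 in room air, 6.23, 6.47, 6.19 and 5.95 in hypoxia, and 6.43, 7.46 and 6.01 with SU5416. Hypoxia arrays were all below room air, by 0.56 (SE 0.28, adjusted p = 0.494), whereas the SU5416 arrays lay on both sides of room air, with a difference of -0.13 (SE 0.30). Between the hypoxic groups both stood higher with SU5416, Myocd by 0.42 (SE 0.30, adjusted p = 0.819) and Srf by 0.01 (SE 0.10). Every array of Myocd was within 2 log2 units of the background level.

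Counting arrays rather than p-values, 12 of the 31 genes (38.7%) had every SU5416 array above every room-air array, against 4.94% of all probe sets and 7.18% of the brighter ones. These were Actg2, Actn1, Cald1, Cnn1, Des, Flna, Lmod1, Myl9, Pdlim7, Tagln, Tpm1 and Tpm2. In the other direction there were 3, Pdlim3, Rock2 and Synpo2 (9.68% against 6.97%, and 8.05% of the brighter ones). Of all 61 member probe sets, 14 (23.0%) lay wholly above room air with SU5416 and 5 (8.2%) wholly below. For hypoxia alone no gene lay wholly above room air, against 2.05% of all probe sets, and Myocd and Synpo2 lay wholly below, 6.45% against 4.08%. Of the brighter ones 3.03% lay wholly above and 3.08% wholly below. Between the hypoxic groups, 6 of 31 lay wholly higher with SU5416 (19.4% against 6.27%) and none wholly lower (5.25%). Among the brighter probe sets these shares were 6.95% and 7.75%. In 5 genes, Actg2, Cnn1, Des, Tagln and Tpm2, the SU5416 arrays exceeded all 8 others, 16.1% against 1.84% of all probe sets and 2.73% of the brighter ones. In none were they below all 8 (1.63%, and 2.44% of the brighter ones). Of the 61 member probe sets, 12 (19.7%) had SU5416 arrays wholly above hypoxia and 6 (9.84%) above all 8 others.

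The fourth hypoxia array stood apart from the other 3 of its group in these genes. It was the lowest of the 4 in 22 of the 31 genes (71.0%), whereas it was the lowest in 20.8% of all probe sets and 24.7% of the brighter ones. The median deviation of the 31 genes from their room-air mean was -0.13 on this array and 0.12 to 0.13 on the other hypoxia arrays, against 0.18 to 0.26 on the SU5416 arrays and -0.06 to 0.08 in room air. Without it, 8 genes were higher in hypoxia than in room air at an unadjusted p below 0.05 instead of 1, and the median difference was 0.09 instead of 0.04. The 8 were Acta2, Actg2, Cald1, Des, Lmod1, Myl9, Pdlim7 and Tpm2, with differences from 0.30 for Cald1 and Lmod1 to 0.67 for Tpm2, and 14 probe sets of all kinds passed the adjusted test in that comparison. Against hypoxia, the SU5416 group then had 3 higher genes instead of 6 and a median of 0.06 instead of 0.14. The share of all probe sets at an unadjusted p below 0.05 in this refit is not given here. These changes in count are therefore not set against that of all probe sets. The array was singled out because these same genes were low on it. For the 22 genes lowest on it, leaving it out had to raise the hypoxia mean and lower the difference of SU5416 from hypoxia. The changes thus follow in part from the choice of array and are not a separate test. With hypoxia array 1, 2 or 3 left out instead, 0 genes were higher in hypoxia than in room air at that p. Without hypoxia array 4, Tpm2 (adjusted p = 0.0412) and Actg2 (adjusted p = 0.0464) passed the test with SU5416 against room air. Their differences were as before, their SE were 0.13 and 0.16 in place of 0.22 and 0.24, and 38 probe sets passed in all. The fourth hypoxia array was also low in the summed signal of fibroblast genes. The sum of the fibroblast list was 26370 on it and 29540 to 36017 on the other hypoxia arrays, and that of activated fibroblasts 9784 against 11104 to 12093. These sums weigh the brightest genes most. Pdgfra, Dcn and Tcf21 of the fibroblast list and Cthrc1 of the activated list were not lowest on this array, whereas the other genes of both lists were. The part of these lists in the result was not tested.

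**Figure D3:**
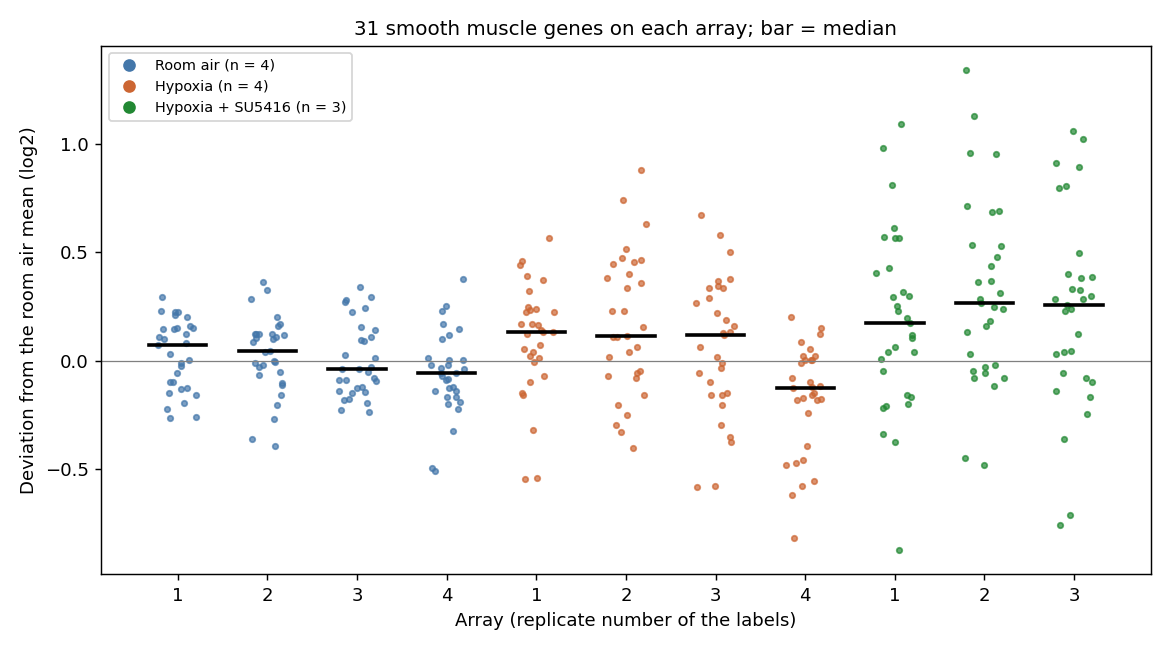
Deviation of each of the 31 genes from its room-air mean on each array (points, log2 units), with the median per array. The median lies at -0.13 on the fourth hypoxia array, 0.12 to 0.13 on the other hypoxia arrays and 0.18 to 0.26 on the SU5416 arrays.

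RNA quality differed within room air. The gap between the 3′ and 5′ control probe sets of beta-actin, which widens when RNA is degraded or incompletely copied, was 2.24 and 1.33 on the first and second room-air arrays and 0.51 to 0.87 on the other 9. With this gap as a covariate the differences with SU5416 from room air were 1.03 for Actg2, 1.08 for Tpm2, 0.99 for Des, 0.92 for Cnn1 and 0.72 for Tagln. Without both arrays they were 1.05, 1.09, 1.07, 0.97 and 0.84, and that of Acta2 was 0.66 in place of 0.40. Smtn then differed by 0.17 (0.20 with the covariate) in place of 0.35 and Pdlim7 by 0.34 (0.38 with the covariate) in place of 0.52, and neither met the unadjusted rule in either refit. Flna met it in both, at 0.29 with the covariate and 0.33 without both arrays, in place of 0.22. Myh11 met it with the covariate alone, at 0.31 (SE 0.13) in place of 0.22. Without both arrays Myh11 differed by 0.30 (SE 0.14). The genes that met the rule as higher were 13 with the covariate and 12 without both arrays. The shares of all probe sets in these refits are not given here. In hypoxia alone Acta2 differed by 0.58 without both arrays (SE 0.15, adjusted p = 0.128) in place of 0.32. Without them 99 probe sets of all kinds passed in hypoxia against room air, in place of 2. No member passed the test in either refit.

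Genes with several probe sets did not always give 1 sign. Of the 16 such genes, all probe sets agreed in sign in 7 for hypoxia against room air, 9 for SU5416 against room air and 10 between the hypoxic groups. With SU5416 against room air the 7 probe sets of Tpm1 ran from -1.07 to 0.52, the 3 of Cald1 from -0.16 to 0.84 and the pair of Tpm2 from -0.03 to 1.04. The probe set of Cald1 with the highest difference, 1368824_at, had room-air arrays at 9.92, 10.23, 9.95 and 9.95, hypoxia arrays at 10.56, 10.33, 10.64 and 9.87, and SU5416 arrays at 10.82, 10.91 and 10.83. The SU5416 arrays exceeded all 8 others, with a difference from room air of 0.84 (SE 0.18, adjusted p = 0.117). The lowest difference of Cald1 came from 1368823_at, whose mean, like those of 1370513_at and 1371240_at of Tpm1, lay below the background level. For the other genes of mixed sign in that comparison, Mylk, Ppp1r12a, Synpo2 and Vcl, no probe set differed by more than 0.39 in either direction.

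Tpm1 gives several muscle and non-muscle forms by alternative splicing, and its probe sets differed most. The leading one, 1370287_a_at, read 12.21 ± 0.09 in room air, 12.37 ± 0.10 in hypoxia and 12.47 ± 0.04 with SU5416. Probe set 1395794_at went the other way, with 9.97, 9.20, 9.39 and 9.80 in room air, 8.73, 8.61, 8.74 and 9.07 in hypoxia, and 8.45, 8.84 and 8.29 with SU5416. No hypoxic array of either group overlapped room air, and the differences were -0.80 in hypoxia (SE 0.20, adjusted p = 0.274) and -1.07 with SU5416 (SE 0.21, adjusted p = 0.107, range 0.0292 to 0.313). Which transcript this probe set reads is not given in the sources used here.

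Another pair of Tpm1 probe sets varied widely between arrays of every group. Probe set 1368724_a_at read 8.36, 10.67, 11.56 and 8.45 in room air, 9.97, 10.13, 7.99 and 9.13 in hypoxia, and 10.57, 10.24 and 9.05 with SU5416. Lung holds cardiac muscle in the walls of large pulmonary veins, and a list of 14 genes of cardiac and other striated muscle varied in much the same order. Its mean log2 level was 6.63, 7.98, 9.35 and 6.44 in room air, 7.57, 7.58, 6.59 and 7.06 in hypoxia, and 8.23, 7.87 and 6.75 with SU5416. Over the 11 arrays the correlation with 1368724_a_at was Pearson's r = 0.96 (permutation p = 1e-05, the smallest these permutations can give, adjusted p = 0.00061 over the 61 member probe sets) and Spearman's correlation = 0.96 (permutation p = 1e-05). The correlation stayed at 0.96 without the 2 arrays farthest from the median of the striated list, and was 0.96 on deviations from group means. Probe set 1371241_x_at, at 6.98 to 11.77 in room air alone, gave r = 0.94 (permutation p = 3e-05, adjusted p = 0.00091), Spearman's correlation = 0.88 (permutation p = 0.00065) and 0.96 without the same arrays. The median r over the 61 member probe sets was 0.10, these 2 alone passed the adjustment, and the relation was noticed after the values had been seen. All 11 arrays share the scaling that the authors applied. The summed signal of the striated list ranged from 1580 to 18223 in room air, 2055 to 5166 in hypoxia and 2379 to 6421 with SU5416, with Myh7 and Actn2 below background.

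**Figure D4:**
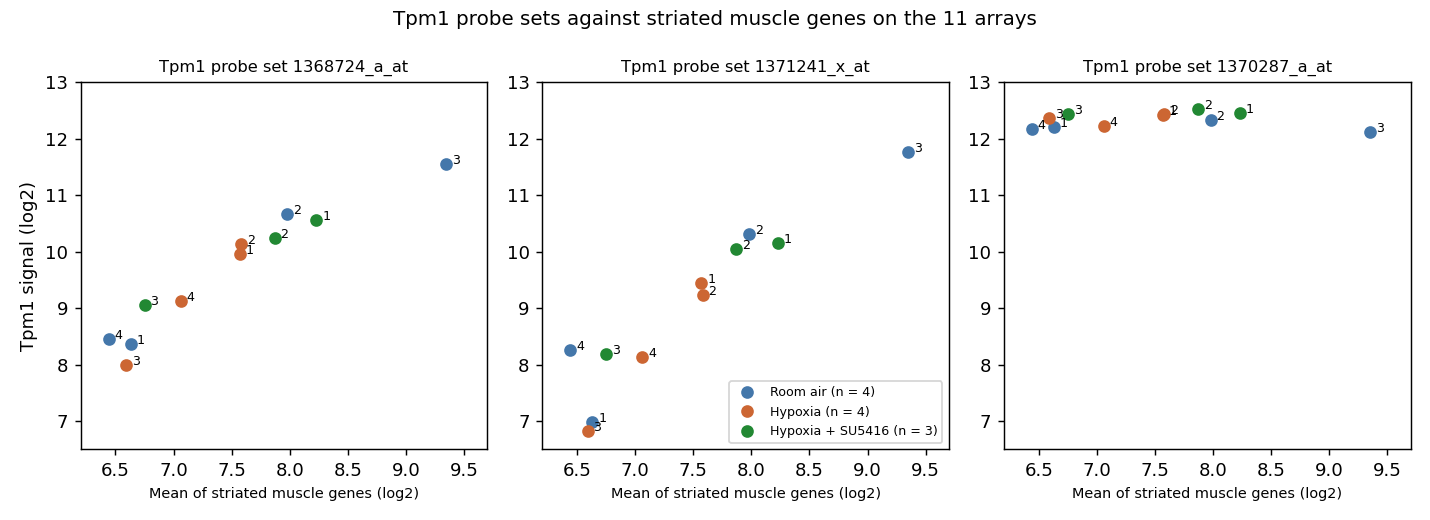
Log2 level of 2 Tpm1 probe sets and of the leading one against the mean log2 level of 14 striated muscle genes, 1 point per array, coloured by group. Arrays with a high striated level, the third room-air array at 9.35 above all, have high values of 1368724_a_at (r = 0.96) and 1371241_x_at (r = 0.94).

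Several marker lists of other cell types also stood apart from room air. With SU5416, 44.5% of all probe sets stood above room air. At an unadjusted p below 0.05, 4.82% of all probe sets were higher with SU5416 and 7.57% lower. With SU5416 against room air, 7 of 8 fibroblast genes stood higher (3 at that p), with a median of 0.35, and their summed signal was 35152 to 37643 against 25456 to 34480 in room air and 26370 to 36017 in hypoxia. Of 5 genes of activated fibroblasts 4 stood higher (2 at that p), with a median of 0.47 and sums of 12495 to 13901 against 11445 to 12392 in room air and 9784 to 12093 in hypoxia. Of 6 pericyte genes 5 stood higher (1 at that p), with a median of 0.25 and sums of 3515 to 3890 against 3137 to 3644 and 3040 to 3799. None of the 5 measured endothelial genes stood higher (2 were lower at that p), their median was -0.37, and their sums were 18120 to 20060 against 20777 to 27776 and 21181 to 22712. Of 5 macrophage genes 4 stood higher (3 at that p, and 1 lower), with a median of 0.69 and sums of 6766 to 9792 against 3366 to 6072 and 5229 to 6000. The medians of the airway, alveolar and mesothelial lists were 0.07, -0.03 and 0.10. Within room air, the first and second arrays, with the widest beta-actin gap, held the highest endothelial sums and the lowest fibroblast and macrophage sums. For endothelium these were 27776 and 26353, against 20777 and 21397 on the other room-air arrays. For fibroblasts they were 25456 and 27396 against 34480 and 28897, and for macrophages 3366 and 4748 against 5413 and 6072. The list differences without those arrays are not given here. None of these lists held a gene that passed the test, none of their defining markers was below background, and their part in the contractile gene differences was not tested.

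The rest of the contractile machinery was read from lists of related genes, of which none passed the test in any comparison. The share of all probe sets above room air with SU5416 was 44.5%. Of 18 other contractile apparatus genes and regulators, 11 stood above room air with SU5416, with a median of 0.08, and 3 met the unadjusted rule as higher, against 4.82% of all probe sets: Hspb1 at 0.39 (SE 0.15), Irag1 at 0.34 (SE 0.14) and Camk2g at 0.36 (SE 0.12). Among the non-muscle forms of the same proteins (Actg1, Myh9, Myh10, Myl12a, Myl12b, Tpm3, Cnn2, Cnn3 and Tagln2) the differences ran from -0.14 for Cnn2 (SE 0.26) to 0.35 for Myh10 (SE 0.27), and none met the unadjusted rule. Of 15 further plaque, dystrophin complex and intermediate filament genes 8 stood higher, with a median of 0.01, and 2 met the unadjusted rule as higher and 1 as lower, against 4.82% and 7.57%. Itga7, the laminin receptor of muscle, differed by 0.95 with SU5416 (SE 0.25, adjusted p = 0.182) and 0.73 in hypoxia (adjusted p = 0.337), and Synm, synemin, the filament partner of desmin, by -0.58 (SE 0.22, adjusted p = 0.336).

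Of 14 further LIM, PDZ and cross-linking genes 11 stood higher with SU5416, with a median of 0.14, and 5 met the unadjusted rule as higher, against 4.82% of all probe sets (Actn4, Csrp2, Fhl2, Mustn1 and Pdlim1). Mustn1, a small nuclear protein of the musculoskeletal system, differed by 1.29 (SE 0.24, adjusted p = 0.0961), Csrp2, a LIM protein of vascular smooth muscle, by 0.72 (SE 0.16, adjusted p = 0.129) and Pdlim1 by 0.60 (SE 0.11, adjusted p = 0.1).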

How the data were processed

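The authors deposited log2 expression values of Affymetrix rat arrays; RMA is named in the submitters' processing notes, without a version. On every array the deposited values had a 2% trimmed mean of 500 on the linear scale, while their distributions differed, so the summarisation and scaling steps are not certain. They were used as deposited. Of 31099 probe sets, 57 controls were left out. The array annotation named 1 gene for 20826 of the other probe sets, several for 436 and none for 9780. Group means were fitted to all 11 arrays at once in limma 3.58.1 under R 4.3.3, leaving 8 degrees of freedom, and moderated with eBayes, with p-values adjusted by Benjamini-Hochberg over all 31042 probe sets; the code was tested on simulated data. Background was the 95th percentile of 27 bacterial control probe sets. Correlations used 100000 permutations (scipy 1.17.1). The number of arrays limits the precision. No scan date or batch was used. All genes were named, with every array value for 12 chosen by name and for a few further probe sets chosen after their values were seen; members, lists and the rule for naming were chosen with earlier results of these data known. The labels pair no arrays. Another list of related genes is not reported here.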

Additional observations from a re-analysis of the deposited data

Results flagged for a closer look

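Of 122 groups of 4 arrays tested among the member probe sets, 6 held an array far from the other 3 (Dixon's test at 95%). This is about the share of 5% that chance flags. The groups of 3 SU5416 arrays were not tested. Of the 6, 3 fell on the fourth hypoxia array, each time as the lowest: Flna at 12.17 against 12.43 to 12.46, Itga1 at 9.30 against 9.80 to 9.85, and Rock2 (1372371_at) at 9.84 against 10.18 to 10.23. In hypoxia the third array was low for Srf probe set 1395378_at, at 5.72 against 7.01 to 7.17. In room air, Des was low on the fourth array, at 9.69 against 10.32 to 10.38, and Cald1 (1368824_at) was high on the second, at 10.23 against 9.92 to 9.95.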

How the results depend on the processing

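No member passed the test in hypoxia against room air or between the hypoxic groups under any alternative. In hypoxia with SU5416 against room air the count was 5 with probe sets dimmer than the median left out (Des adjusted p = 0.0412, Cald1 1368824_at 0.0351, Tpm2 0.0336, Actg2 0.0345 and, lower, Tpm1 1395794_at 0.0292), where 15521 probe sets were tested and 214 called. It was 4 with limma's trend and robust options (the same without Des; 145 called), and 0 to 2 with each array left out in turn, the 2 being Tpm2 and Actg2 without the fourth hypoxia array. Over all probe sets that comparison gave 43 calls after quantile normalization and 8 with only the groups compared, against 19. The median member difference ranged from 0.01 to 0.13 for hypoxia against room air, 0.18 to 0.36 with SU5416 against room air and 0.06 to 0.23 between the hypoxic groups. It was 0.36 with invariant probe sets left out, which keeps 19 leading probe sets. With each array left out it ran from 0.02 to 0.09, 0.18 to 0.27 and 0.06 to 0.17. The replicate numbers pair no arrays in the labels (correlations of same-numbered deviations -0.125 to 0.128); with a replicate block no member passed, the medians were 0.04, 0.19 and 0.10, and 1, 6 and 6 probe sets passed in all, against 2, 19 and 8. Of 3765 refits of single probe sets, 3537 kept their sign and their side of the threshold, 217 differences of under 2 SE turned sign, 11 passed the test that had not, and none of at least 2 SE turned sign. In the 3 comparisons 18, 23 and 23 of the 31 genes kept their sign in every refit, in the order above. The causes were not tested.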
